A study of Mus musculus with 8 samples.

Results

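Conventional dendritic cell genes were followed in RNA sequencing libraries of mouse CD8+ T cells that had been split by their level of IL-18Rα. The genes were fixed by name: *Clec9a*, *Xcr1*, *Batf3*, *Naaa*, *Wdfy4*, *Zbtb46*, *Irf8*, *Itgax*, *Cd24a* and *Ly75*, with MHC class II genes left out. Of these 10 genes, 9 were found among the 47493 genes of the table, and *Irf8* was not analysed here. All 9 reached a mean of 1 FPKM over the 8 libraries, the level from which 12166 genes were tested. FPKM is a fragment value divided by transcript length and library depth, so levels of different genes are given per length.

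The libraries came from 4 female C57BL/6 mice of 6–8 weeks, and every animal had the same treatment. B16F10 melanoma cells (200000) were placed in the skin on day 0, cyclophosphamide (300 mg/kg) followed on day 3, and Pmel-1 CD8+ T cells (2000000, marked by Thy1.1 and specific for a melanoma antigen) were infused on day 5 with IL-2 (10000 IU daily for 3 days). Anti-CD4 antibody (200 μg) was given weekly for 3 weeks from day 10, and inguinal lymph nodes and spleen were taken on day 25. Endogenous Thy1.1-negative CD8+ T cells were isolated with beads by removal of other cells, then divided on a magnetic column into IL-18Rαhi cells held by a PE-labelled antibody (enriched fraction, n = 4) and the cells that ran through (flow-through, the control fraction, n = 4). Each mouse gave a library of each fraction. The purity of the fractions was not analysed here, and in bulk RNA fewer cells of a type and less RNA per cell cannot be told apart.

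Conventional dendritic cells take up antigen and present it to T cells. Their type 1 form (cDC1) depends on the transcription factors BATF3 and IRF8, takes up material from dead cells and presents it on MHC class I to CD8+ T cells, and carries XCR1, the receptor for a chemokine, XCL1, that activated CD8+ T cells and NK cells release. Many of the genes are not limited to these cells: *Itgax* and *Batf3* are also used by activated lymphocytes, *Wdfy4* by B cells, and *Cd24a* by B cells, immature T cells and red cell precursors.

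The sequences before the start sites of *Xcr1* and *Clec9a*, the pair that marks cDC1 most narrowly, and of *Itgax*, the only one of the members that rose whose window held the letters of an AP-1 site, are shown to place the genes in the genome. They are 250 bases ending just before the start in the RefSeq annotation of GRCm38.p6, written 5′ to 3′ on the strand of the gene at chr9:123862030-123862279 (minus strand), chr6:129408612-129408861 (plus strand) and chr7:128129300-128129549 (plus strand). Capitals mark the AP-1 letters, to which BATF3 binds with a JUN partner.
Xcr1: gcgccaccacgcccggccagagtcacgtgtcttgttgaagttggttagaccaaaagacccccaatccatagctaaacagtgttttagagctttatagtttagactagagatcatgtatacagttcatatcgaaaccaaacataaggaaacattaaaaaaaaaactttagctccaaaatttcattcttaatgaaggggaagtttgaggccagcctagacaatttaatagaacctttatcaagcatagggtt
Clec9a: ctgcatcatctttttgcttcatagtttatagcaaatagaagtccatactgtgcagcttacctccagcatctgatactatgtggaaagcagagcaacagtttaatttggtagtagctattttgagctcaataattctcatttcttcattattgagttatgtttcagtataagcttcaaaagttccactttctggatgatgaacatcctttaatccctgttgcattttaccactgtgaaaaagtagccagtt
Itgax: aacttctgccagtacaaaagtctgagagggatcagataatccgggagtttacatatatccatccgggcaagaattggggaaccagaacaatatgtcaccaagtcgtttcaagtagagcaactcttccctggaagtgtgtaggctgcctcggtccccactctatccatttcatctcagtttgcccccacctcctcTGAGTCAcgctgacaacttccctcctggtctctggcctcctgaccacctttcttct
Both strands were searched for TGANTCA (AP-1), for GAAA repeated after a gap of 2 bases (the interferon-stimulated element) and for GGAA followed by GAAA after the same gap (the ETS-IRF element), of which the last can overlap the second. Such windows were found for 8 members, and *Cd24a* had no entry. TGANTCA was present in *Itgax*, at −56 to −50 from the start, and in *Zbtb46*, at −61 to −55 from a RefSeq start that lies inside the gene as given here from GENCODE, whereas 6.749% of all 32851 promoter windows held it. The other patterns, held by 2.977% and 2.301% of all windows, were not among the letters of the members' windows. GC content was 38.8% for *Xcr1* and 35.6% for *Clec9a* beside a median of 52.4% over all windows.

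Depth was estimated at 14400000–17100000 fragments from the smallest FPKM steps of long genes. The estimate used a fixed window of small values, which limits the range it can take, so it cannot show whether depth differed. Summed FPKM was 656715–711678. *Il18r1*, which encodes IL-18Rα, checked the labels: it was 30.6 ± 6.96 FPKM in flow-through libraries and 111 ± 3.87 in enriched libraries (mean ± SD, n = 4 each), with no overlap. Genes of CD8 T-cell identity were high in every library, at a summed 1529–2887 FPKM for flow-through and 3035–3316 for enriched libraries, with 1 of 8 called higher (*Thy1*, log2 fold change 0.75; 2 with the mouse as a block or without flow-through replicate 1, 2 or 4). Flow-through replicate 1 was the lowest of these and had the highest sum of erythroid markers, 2822 FPKM beside 909–1565 in the other flow-through libraries.

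Of the 9 members tested, 5 were higher in the enriched fraction (*Xcr1*, *Clec9a*, *Batf3*, *Naaa* and *Itgax*) and 0 were lower, in limma on log2(FPKM + 1) with Benjamini-Hochberg adjustment over all genes and a threshold of 0.05. At the adjusted threshold 14.1% of all genes were called higher and 13.7% lower, 27.8% in all. With an unadjusted limma p under 0.05 the member counts were 6 and 0. The share of all genes at that unadjusted level was not computed, so these 2 counts have no background. The same 5 members were those with no overlap between fractions, as were 16.4% of all genes in that direction (15.9% in the other, with 0 members), and 6 members were higher in 4 of 4 mice (29.2% of all genes) and 1 lower (30.6%). The log2 fold change, enriched minus flow-through on the log2(FPKM + 1) scale, is written as the log2 change, and its median was 1.63 over the members beside −0.02 over all genes tested. With the mouse as a block in the fit, 6 members were called higher and 1 lower, where 22.2% of all genes were higher and 22.7% lower; the additions were *Wdfy4* and *Cd24a*.

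**Figure D1:**
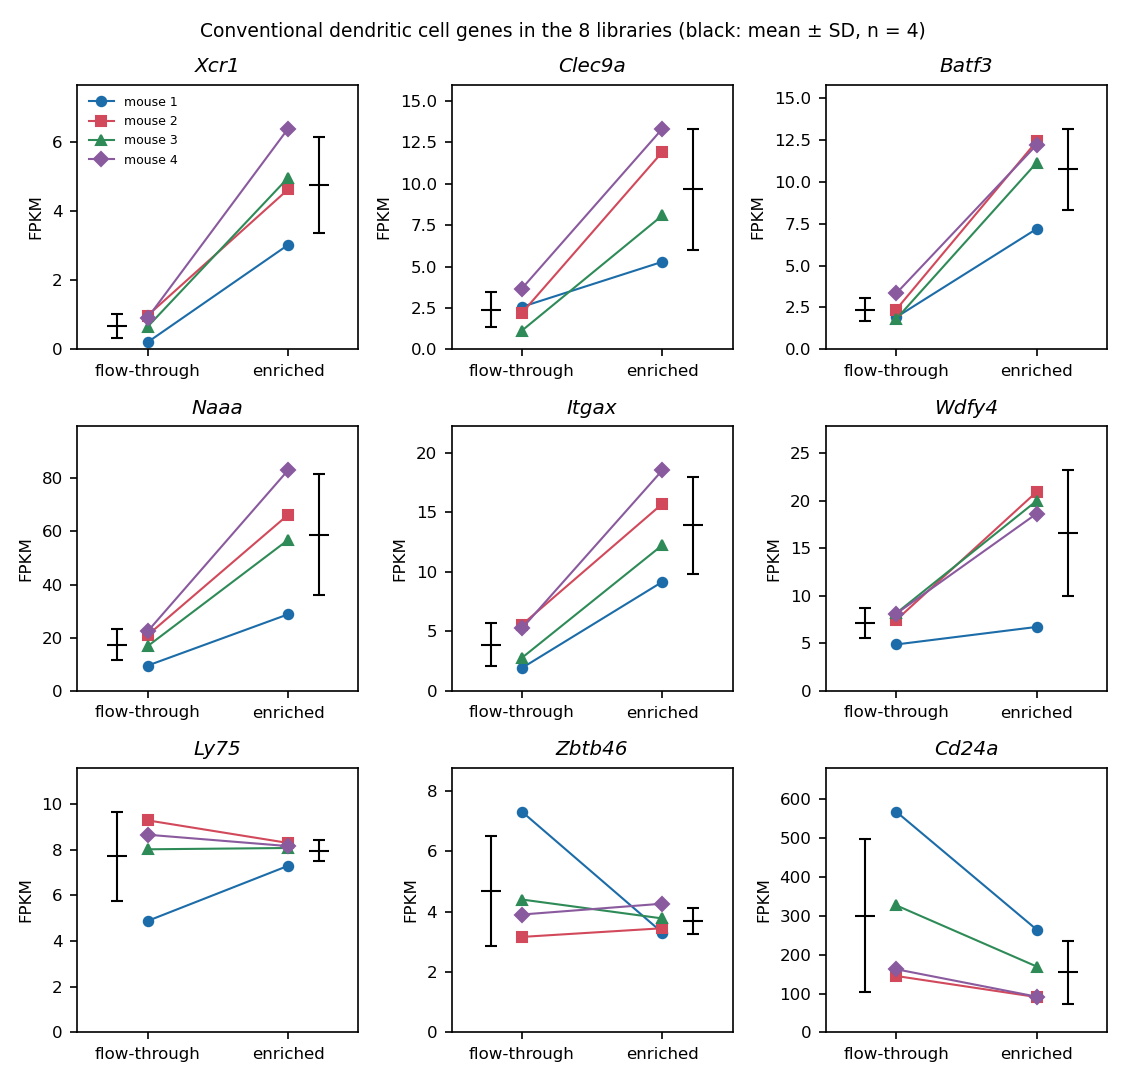
FPKM (vertical axes, each from 0) of the 9 members in the flow-through and enriched libraries of the 4 mice, with a line joining the libraries of a mouse and black bars for mean ± SD (n = 4). For *Xcr1*, *Clec9a*, *Batf3*, *Naaa* and *Itgax* every enriched point lies above every flow-through point, whereas *Cd24a* is lower in the enriched library of 4 of 4 mice, from flow-through levels of 145–567 FPKM.

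*Xcr1*, the chemokine receptor of cDC1 (chr9:123852315-123862029, minus strand, GRCm38), had the largest ratio of the members. It was at 0.207, 0.978, 0.654 and 0.912 FPKM in flow-through replicates 1 to 4 and at 3.02, 4.63, 4.96 and 6.38 FPKM in enriched replicates 1 to 4. All enriched libraries were above all flow-through libraries, and the lowest library of each fraction came from mouse 1. Mean levels were 0.688 ± 0.350 and 4.75 ± 1.38 FPKM, a ratio of 6.90, and the log2 change was 1.76 (SE 0.22, adjusted p = 0.0017 in limma). The flow-through mean was under 1 FPKM, so *Xcr1* reached the filter through the enriched libraries. The ratio within a mouse ran from 4.73 in mouse 2 to 14.6 in mouse 1, whose flow-through value of 0.207 FPKM was the lowest of all libraries. With a pseudocount of 0.1 in place of 1 the log2 change was 2.73.

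*Clec9a*, the receptor by which cDC1 sense dead cells (chr6:129408862-129424763, plus strand), was at 2.57, 2.19, 1.13 and 3.67 FPKM in the flow-through and at 5.29, 11.9, 8.08 and 13.3 FPKM in the enriched libraries. The fractions did not overlap, and enriched replicate 1 was again the lowest of its fraction. Levels were 2.39 ± 1.05 and 9.65 ± 3.65 FPKM, a ratio of 4.03 (log2 change 1.63, SE 0.31, adjusted p = 0.0070 in limma). Within mice the ratio was 2.06, 5.43, 7.14 and 3.63, so mouse 1 had the smallest ratio for *Clec9a* and the largest for *Xcr1*. In the enriched libraries the level of *Clec9a* was 2.01 ± 0.424 times that of *Xcr1*. In the flow-through it was 12.4 times in replicate 1, where *Xcr1* was at its lowest, and 2.24, 1.73 and 4.02 times in replicates 2 to 4.

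*Batf3*, the transcription factor that cDC1 need to develop (chr1:191097847-191108945, plus strand), had the smallest adjusted p of the members. Its FPKM was 1.92, 2.38, 1.81 and 3.34 in the flow-through, against 7.19, 12.4, 11.1 and 12.2 in enriched libraries. Enriched replicates 2 to 4 lay close together, and replicate 1 was below them but above all flow-through libraries. The mean rose from 2.36 ± 0.695 to 10.7 ± 2.43 FPKM (log2 change 1.80, SE 0.20, adjusted p = 0.0010 in limma), with ratios of 3.66–6.15 within mice.

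*Naaa*, which encodes a lysosomal acid amidase that hydrolyses N-acylethanolamines (chr5:92257659-92278170, minus strand), was the most abundant of the 5 genes that rose. It was at 9.51, 20.9, 16.8 and 22.4 FPKM in the flow-through and at 28.8, 66.2, 56.8 and 83.0 FPKM in the enriched libraries. Mouse 1 was lowest and mouse 4 highest in both fractions, and the ratio within a mouse was nearly constant, between 3.03 and 3.71. Levels were 17.4 ± 5.76 and 58.7 ± 22.7 FPKM (log2 change 1.67, SE 0.35, adjusted p = 0.0106 in limma).

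*Itgax*, the CD11c integrin chain that dendritic cells share with macrophages and activated lymphocytes (chr7:128129547-128150657, plus strand), was at 1.92, 5.56, 2.78 and 5.25 FPKM in the flow-through and at 9.17, 15.7, 12.3 and 18.6 FPKM in the enriched fraction. The fractions did not overlap. The means were 3.88 ± 1.80 and 13.9 ± 4.09 FPKM, a ratio of 3.59 (log2 change 1.65, SE 0.30, adjusted p = 0.0062 in limma). For each of these 5 genes the exact two-sided permutation test of FPKM gave 0.0286. That is the smallest p that the 70 arrangements of 4 against 4 libraries allow. These arrangements ignore the pairing by mouse and treat the libraries as independent, here and for *Wdfy4* below.

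*Wdfy4*, which encodes a protein needed for cross-presentation of cell-bound antigen by cDC1 (chr14:32959547-33185508, minus strand), changed its call with the fit and with mouse 1. The flow-through libraries held 4.88, 7.44, 8.17 and 8.12 FPKM and the enriched libraries 6.73, 20.9, 20.0 and 18.6 FPKM. Enriched replicate 1 lay below 3 flow-through libraries, while the other enriched libraries lay above all of them. The log2 change of 1.02 (SE 0.33) had an adjusted p in limma of 0.0511, just above the threshold, and the exact permutation p was 0.114. All 4 mice had more in the enriched fraction, by 1.38 times in mouse 1 and 2.30–2.81 times in the others. With the mouse as a block the limma adjusted p was 0.0033, and without enriched replicate 1 the log2 change was 1.38 (adjusted p = 0.0032 in limma).

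*Cd24a*, a surface glycoprotein used to tell cDC1 from other dendritic cells in spleen but also present on red cell precursors and B cells (chr10:43578284-43584265, plus strand), was the most abundant member and went the other way. It was at 567, 145, 327 and 162 FPKM in the flow-through and at 264, 90.8, 169 and 91.8 FPKM in the enriched fraction. The fractions overlapped, and the mice differed: mice 1 and 3 were high in both fractions and mice 2 and 4 low in both. The means were 300.3 ± 196 and 154 ± 82.1 FPKM (log2 change −0.88, SE 0.50, adjusted p = 0.214 in limma). Within mice the enriched value was 0.466, 0.626, 0.518 and 0.566 of the flow-through value, and with the mouse as a block the change was called (SE 0.083, adjusted p = 0.0006 in limma).

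*Zbtb46*, a transcription factor of the conventional dendritic cell lineage that is also present in red cell precursors and endothelium (chr2:181387762-181459426, minus strand), did not pass the test. It was at 7.31, 3.16, 4.40 and 3.90 FPKM in the flow-through and at 3.30, 3.45, 3.77 and 4.26 FPKM in the enriched libraries. Flow-through replicate 1 was high and the other 7 libraries lay between 3.16 and 4.40 FPKM. The log2 change was −0.23 (SE 0.20, adjusted p = 0.413 in limma), with 2 of 4 mice higher in the enriched fraction, and 0.007 without mouse 1.

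*Ly75*, the DEC-205 receptor that cDC1 use to take up antigen (chr2:60292103-60383303, minus strand), was at 4.88, 9.28, 8.01 and 8.65 FPKM in the flow-through and at 7.29, 8.29, 8.07 and 8.15 FPKM in the enriched fraction. Outside flow-through replicate 1 the libraries lay between 7.29 and 9.28 FPKM. The log2 change was 0.07 (SE 0.17, adjusted p = 0.779 in limma) and was −0.11 without flow-through replicate 1.

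The order of the levels differed between the fractions. In the enriched fraction the mean FPKM per gene descended from *Cd24a* (154) and *Naaa* (58.7) through *Wdfy4* (16.6), *Itgax* (13.9), *Batf3* (10.7), *Clec9a* (9.65) and *Ly75* (7.95) to *Xcr1* (4.75) and *Zbtb46* (3.70). From *Wdfy4* to *Ly75*, neighbours in that order differed by less than the larger of their SDs, as did *Xcr1* and *Zbtb46*. In the flow-through *Ly75* (7.70) stood above *Itgax* (3.88), *Clec9a* (2.39) and *Batf3* (2.36), by more than their SDs.

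The libraries of mouse 1 were often at the edge of their fraction. Enriched replicate 1 was the lowest library of its fraction for 8 of the 9 members, all but *Cd24a*, and enriched replicate 4 was the highest for 5 and flow-through replicate 4 for 3. Flow-through replicate 1 was the lowest of its fraction for 5 members and the highest for *Zbtb46* and *Cd24a*. Without mouse 1 the 5 genes that rose remained called, and *Wdfy4* joined them (log2 change 1.23, adjusted p = 0.0005 in limma).

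A scaling by T-cell genes was tried, since the level of these genes differed among libraries: each library was divided by its geometric mean of the 8 CD8 T-cell identity genes, a factor of 0.567 in flow-through replicate 1, 0.897–1.07 in the other flow-through libraries and 1.12–1.21 in the enriched libraries. On that scale the median over all genes was −0.38, and 505 genes were higher and 1590 lower where the deposited scale gave 1720 and 1664. The same 5 members stayed higher, with log2 changes of 1.31 for *Clec9a*, 1.56 for *Xcr1*, 1.47 for *Batf3*, 1.28 for *Naaa* and 1.32 for *Itgax* and adjusted p in limma of 0.0029 to 0.0312, where 4.15% of all genes were called higher, 13.1% lower and 17.2% in all. *Ly75* changed sign, to −0.28.

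Other genes of cDC1 rose, as did the 5 members called higher. Of 12 such genes tested, 11 were called higher (14.1% of all genes), with a median log2 change of 1.21. In 9 there was no overlap between fractions (16.4% of all genes in that direction). Several of these genes, *Tlr11* among them, averaged under 1 FPKM in the flow-through and reached the filter through the enriched libraries. *Ifi205*, an interferon-inducible gene, rose from 3.01 to 12.2 FPKM (log2 change 1.68), *Tlr11*, a receptor for microbial profilin, from 0.450 to 3.14 FPKM (1.46), and *Rab7b*, a small GTPase of endosomes, from 1.99 to 6.75 FPKM (1.35). The most abundant were *Itgae*, the CD103 integrin chain that CD8+ T cells also carry, at 42.9 and 80.1 FPKM, and *Ppt1*, a lysosomal thioesterase, at 29.5 and 61.0 FPKM. *Fuca1*, a lysosomal fucosidase, was the 1 gene not called (28.9 and 32.3 FPKM, adjusted p = 0.397 in limma). The count was 10 without a filter on low values, 8 at T-cell scaling, 7 without flow-through replicate 3, and 5 among genes of at least 5 FPKM.

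Genes of type 2 conventional dendritic cells were called in part. Of 9 tested, 4 were higher (14.1% of all genes), and the median log2 change of the list was 1.10. With the mouse as a block 7 were higher (22.2% of all genes). *Cd209a*, a lectin receptor, rose from 3.96 to 11.6 FPKM (log2 change 1.35) and *Itgam*, the CD11b chain, from 3.42 to 9.61 FPKM (1.27). *Cd7*, which T and NK cells also use, rose from 187 to 559 FPKM (1.63), and *Irf4*, chosen after its values were seen and also used by activated T cells, from 8.09 to 18.1 FPKM (1.10). *Clec12a* was more abundant than the other lectin receptors, at 18.4 ± 13.2 and 26.2 ± 14.2 FPKM, and was not called (adjusted p = 0.418 in limma).

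With the mouse as a block, 9 of 11 genes of dendritic cell development were higher (22.2% of all genes). Without the block 3 were higher (14.1% of all genes). They were *Id2*, a transcriptional inhibitor shared with effector T cells (104 and 312 FPKM, log2 change 1.63), *Nfil3*, a transcription factor upstream of cDC1 (2.58 and 5.51 FPKM, 0.88), and *Flt3*, the cytokine receptor on which dendritic cells depend. *Flt3* was at 1.95, 6.05, 2.88 and 5.55 FPKM in the flow-through, against 5.75, 12.1, 9.49 and 14.0 FPKM in enriched libraries, where only enriched replicate 1 lay below a flow-through library. Its log2 change was 1.18 (adjusted p = 0.0327 in limma, and 0.0005 with the mouse as a block), and in the enriched libraries *Clec9a* was 0.927 ± 0.0568 times its level. The count of 3 became 1 at T-cell scaling, without a filter on low values, and without flow-through replicate 3, enriched replicate 2 or enriched replicate 4.

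Genes of mature or migratory dendritic cells moved both ways, with 3 of 8 higher and 1 lower (14.1% and 13.7% of all genes). *Cd83* rose from 4.48 to 11.5 FPKM (log2 change 1.22) and *Cd80*, a costimulatory ligand, from 0.939 to 2.77 FPKM (0.95). *Ccr7*, the lymph node homing receptor of mature dendritic cells and of naive T cells, fell from 93.6 ± 26.8 to 36.9 ± 2.21 FPKM (−1.27, adjusted p = 0.0040 in limma). With the mouse as a block 6 were higher (22.2% of all genes). In the machinery of cross-presentation and MHC class I loading, 3 of 9 genes were higher on the deposited scale and 0 at T-cell scaling. Of all genes 14.1% and 4.15% were higher on these scales. In these lists no gene was called lower, nor at an unadjusted p under 0.05, other than *Ccr7*. *Rab43*, a GTPase used by cDC1 in cross-presentation, rose from 10.0 to 21.8 FPKM on the deposited scale (1.08).

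**Figure D2:**
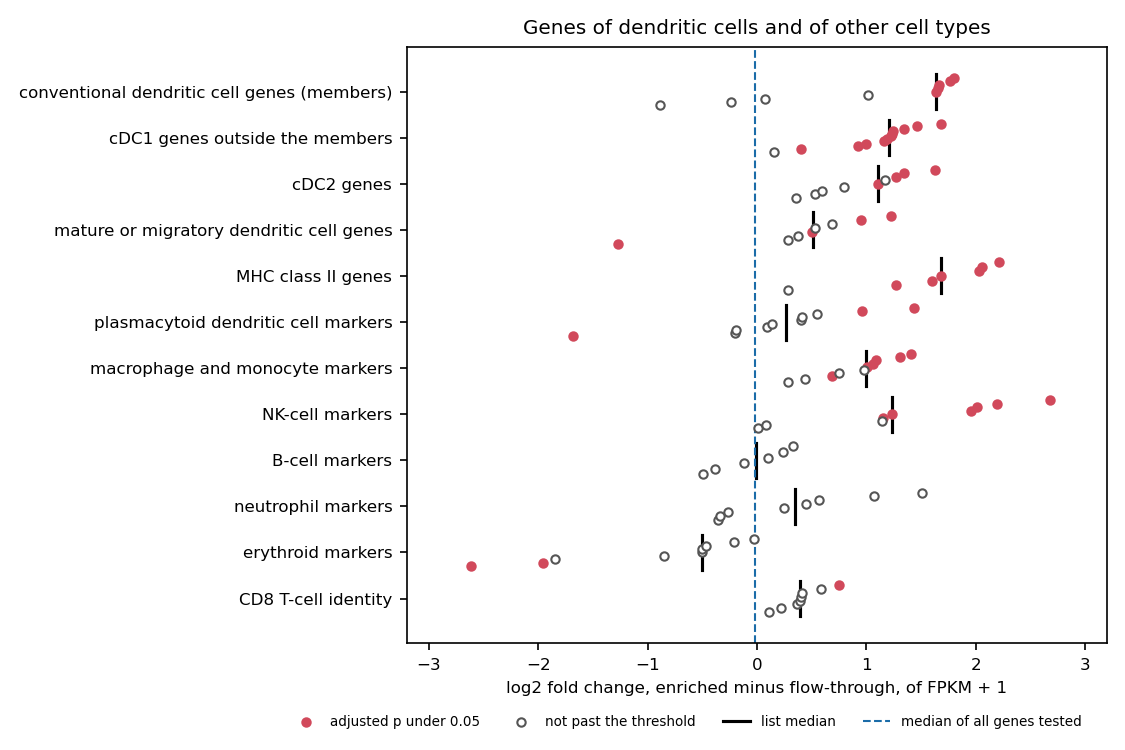
Log2 fold change of FPKM + 1, enriched minus flow-through (horizontal axis), of each gene tested in the lists of dendritic cell genes and of other cell types. Filled points passed the threshold, black bars are list medians and the dashed line is the median of all genes (−0.02). The 5 members that rose lie at 1.63–1.80. Also higher were 6 of 7 MHC class II genes and 6 of 9 NK-cell markers, where 14.1% of all genes were. Erythroid markers lie at or below the median of all genes.

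Ligands through which T cells act on dendritic cells were also higher. Of 10 tested, 9 were called higher (14.1% of all genes), and the median log2 change of the list was 1.08. With the mouse as a block 10 were higher (22.2% of all genes). *Cd40lg*, the ligand of CD40, rose from 3.13 to 15.6 FPKM (log2 change 2.04), *Ifng* from 8.86 to 23.7 FPKM (1.35) and *Tnfsf11*, the ligand RANKL, from 1.91 to 5.77 FPKM (1.24). *Ccl5*, a chemokine, was the most abundant at 459 and 781 FPKM. The count was 5 at T-cell scaling and without a filter on low values, and 4 without flow-through replicate 3, enriched replicate 2 or enriched replicate 4.

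*Xcl1*, the ligand of XCR1, was the 1 gene of that list not called. It was at 10.9, 30.5, 28.7 and 34.1 FPKM in the flow-through and at 33.6, 61.1, 52.6 and 72.6 FPKM in the enriched fraction. Enriched replicate 1 lay just below flow-through replicate 4, and within each mouse the enriched library was higher. The log2 change was 1.11 (SE 0.36, adjusted p = 0.0520 in limma, and 0.0008 with the mouse as a block). *Flt3l*, the ligand of FLT3, was chosen after its values were seen: it rose from 31.6 ± 5.54 to 44.9 ± 3.04 FPKM with no overlap (0.51, adjusted p = 0.0202 in limma).

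**Figure D3:**
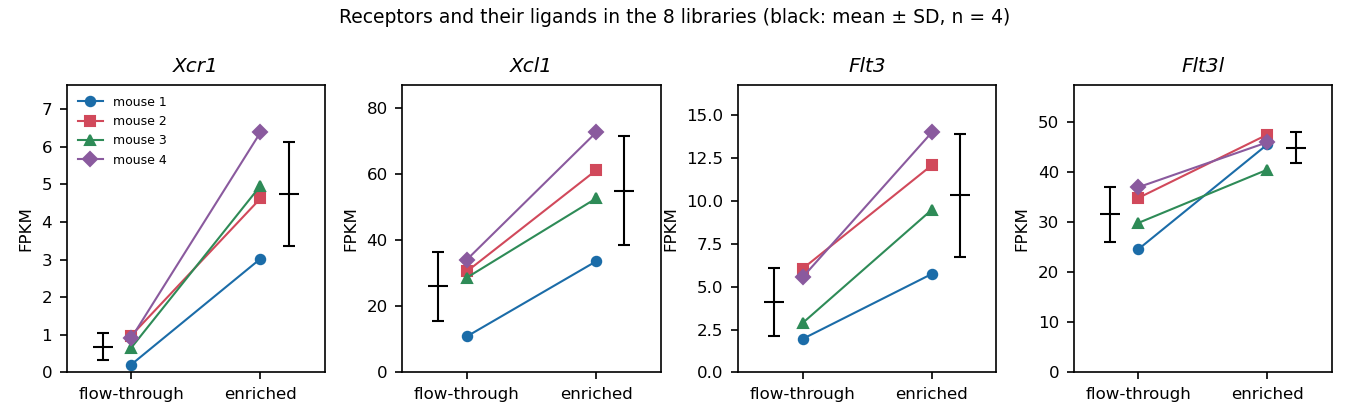
FPKM (vertical axes, each from 0) of *Xcr1* and its ligand gene *Xcl1*, and of *Flt3* and its ligand gene *Flt3l*, in both fractions of the 4 mice (lines join the libraries of a mouse, black bars are mean ± SD, n = 4). Each gene is higher in the enriched library of every mouse, with *Xcr1* rising from 0.207–0.978 to 3.02–6.38 FPKM and *Xcl1* from 10.9–34.1 to 33.6–72.6 FPKM.

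Markers of several other cell types that a CD8 isolation can leave behind rose, as did the 5 members called higher. For the counts below, 14.1% of all genes were higher and 13.7% lower in the main fit. With the mouse as a block these shares were 22.2% and 22.7%. MHC class II genes were higher in 6 of 7 (median log2 change 1.68, summed FPKM 220–680 for flow-through and 822–2325 for enriched libraries), led by *H2-Eb1* (2.21) and *H2-Aa* (2.06). Of 9 NK-cell markers 6 were higher (158–413 and 423–782 summed FPKM). The largest changes were *Ncr1* at 2.68, *Gzma* at 2.19 and *Klrb1c* at 2.02 on the log2 scale. Activated CD8+ T cells can also use some of these genes. The most abundant, *Tyrobp* (104 and 221 FPKM) and *Klrd1* (96.0 and 92.4 FPKM), were not called (adjusted p = 0.0525 and 0.986 in limma). Of 10 macrophage and monocyte markers 6 were higher (458–1167 and 1050–1840 summed FPKM), with *Lyz2* at 1.41, and that count was 1–3 at T-cell scaling, at the stricter filter, and without flow-through replicate 1 or 3 or enriched replicate 2, 3 or 4. Much of those sums was *Ly6c2*, at 333–750 FPKM in flow-through and 631–902 in enriched libraries, which was not called (adjusted p = 0.221 in limma). Plasmacytoid dendritic cell markers gave 2 higher (*Runx2*, 1.43, and *Siglech*, 0.96) and 1 lower (*Ccr9*, −1.68) of 10, where 14.1% of all genes were higher and 13.7% lower. Their summed FPKM was 172–274 and 217–299, of which *Bst2* and *Irf7*, neither of them called, made up most. With the mouse as a block 5 were higher, and 2 were lower without flow-through replicate 1. B-cell and neutrophil markers gave 0 calls of 6 and 0 of 8 (22.2–61.3 and 28.0–72.0, 392–2275 and 421–2706 summed FPKM), likewise 0 at an unadjusted p under 0.05, with 1 B-cell marker each way and 3 neutrophil markers higher and 1 lower when the mouse was a block. Of 9 erythroid markers 2 were lower (*Car1*, −2.61, and *Gata1*, −1.95), with 909–2822 and 225–1542 summed FPKM, against 6 with the mouse as a block and 1 without flow-through replicate 3 or enriched replicate 2 or 4. No marker of these lists was at 0 in all libraries. The part of these cells in the levels of the members was not tested.

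Likeness between genes is given as Pearson r of log2(FPKM + 1) over the 8 libraries, which share mice and the split into fractions, as a description. *Xcr1* was followed most closely by *Gzmc* (r = 0.996), *Slc4a7* (0.994), *Klrb1b* (0.994), *Il1r1* (0.994) and *Sema6d* (0.993), and 1138 of 12166 genes reached 0.9. *Clec9a* had 221 such genes and was nearest to *Slamf8* (0.968), *Spp1* (0.967), *Batf3* (0.963), *Adam8* (0.961) and *Rasgrp4* (0.960). After the mean of each fraction was taken away, these values were 0.833–0.877, and r of *Clec9a* with *Xcr1* fell from 0.92 to 0.53. The values of the genes named with *Xcr1* were then 0.958–0.980. *Zbtb46* had 33, led by *2310031A07Rik* (0.959), *Armt1* (0.954), *Zbtb22* (0.949), *Fgd6* (0.949) and *Ciapin1* (0.941), none of them members.

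*Cd24a*, *Zbtb46* and *Ly75* were compared with genes of other cell types, chosen after their values were seen. *Cd24a* had r = 0.92 with *Gata1*, an erythroid transcription factor, and 0.97 after the mean of each fraction was taken away. *Cd24a* was 4.53 ± 0.578 times *Gata1* in the flow-through and 10.2 ± 2.13 times in the enriched fraction. *Zbtb46* ran against *Cd3e*, a chain of the T-cell receptor complex (r = −0.91), and *Ly75* ran with it (0.83). Flow-through replicate 1 had the lowest *Cd3e* (123 FPKM beside 186–248 in the other libraries), the highest *Zbtb46* and the lowest *Ly75*. Both values lean on that library, and r without it was not computed. *Wdfy4*, though not called, had r = 0.94 with *Naaa* and 0.92 with *H2-Aa* (0.88 and 0.83 after the fraction means were taken away). *Naaa* had r = 0.99 with *H2-Aa* and 0.98 with *Itgax* (0.97 and 0.91 after the same step), and *Itgax* had 0.98 with *Flt3* (0.99). These correlations rest on 8 libraries from 4 mice.

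**Figure D4:**
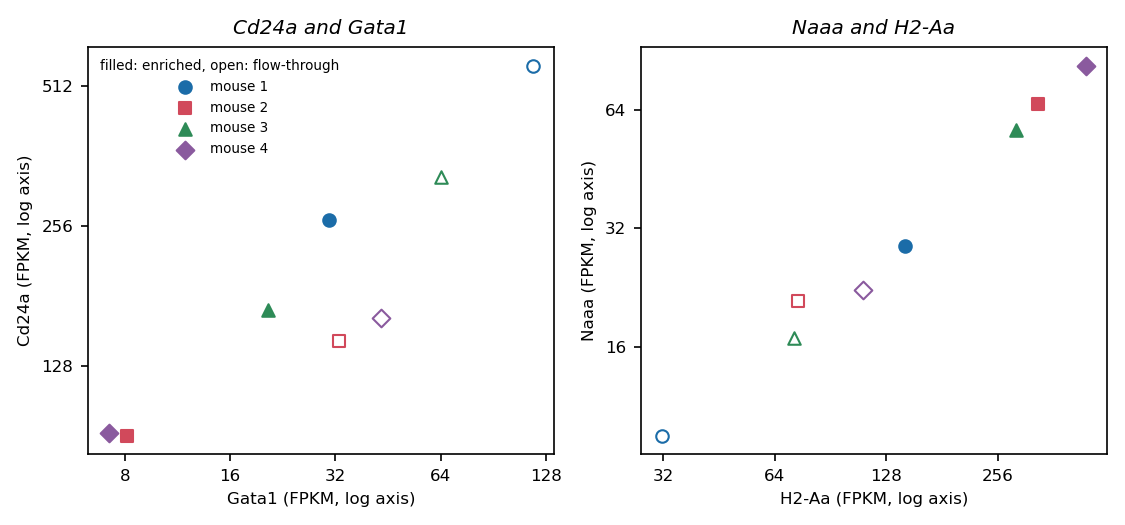
FPKM of *Cd24a* against *Gata1* (left) and of *Naaa* against *H2-Aa* (right) in the 8 libraries, on log axes, with open symbols for flow-through and filled symbols for enriched libraries of the 4 mice. *Cd24a* is highest in flow-through replicate 1 (567 FPKM), which also has the most *Gata1*, while *Naaa* is lowest there (9.51 FPKM) and highest in enriched replicate 4 (83.0 FPKM).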

How the data were processed

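RNA of 8 libraries (4 mice, enriched and flow-through fraction of each) was analysed. The authors mapped stranded paired-end poly(A) reads to mm10 with TopHat (version not given in the sources used here) and deposited FPKM from Cufflinks 2.1.1 with multi-read and fragment-bias correction. Default options do not use strand, so overlapping antisense genes cannot be told apart. Coordinates came from GENCODE M21, which held 99.1% of the identifiers. Depth was estimated from genes with 1 transcript of at least 1500 bases whose values fell in a fixed window, so differences in depth could not be seen.

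Groups and numbers came from the labels. Differences were tested with limma 3.58.1 (R 4.3.3) with a variance trend on log2(FPKM + 1), over genes that averaged 1 FPKM or more, without a block, adjusted by Benjamini-Hochberg (threshold 0.05); the scale understates changes of low genes. The fractions of a mouse share its number, and their deviations from the fraction means correlated (r = 0.66, 0.589, 0.308 and 0.471 for mice 1 to 4), so the mouse as a block was the alternative fit. Other alternatives were pseudocounts of 0.1 and 0.5, filters, scalings, no trend and each library left out. Beside the members, the genes named were, per list, up to 3 with the largest change past the threshold and up to 2 of the highest mean, plus *Xcl1*, *Il18r1* and the 5 genes most like *Xcr1*, *Clec9a* and *Zbtb46*; *Fuca1*, *Flt3l*, *Irf4* and *Cd3e* were added after their values were seen. The members and lists were chosen with earlier results of these data known.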

Additional observations from a re-analysis of the deposited data

Results flagged for a closer look

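For *Wdfy4*, enriched replicate 1 stood apart from the other enriched libraries, at 6.73 FPKM against 18.6–20.9. The summed FPKM of the cross-presentation genes stood apart in enriched replicate 4, at 4703 against 4098–4199. Most of that sum was the single gene *B2m*, at 4032 FPKM in enriched replicate 4 against 3486–3516 in the other enriched libraries. Of 50 groups of 4 libraries examined for a library far from the rest, these were the 2 found, and chance gives about 2.5.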

How the results depend on the processing

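The 5 members that rose (*Xcr1*, *Clec9a*, *Batf3*, *Naaa*, *Itgax*) kept their call in all 84 values computed under the alternatives, and the number of members called higher was 4–6. *Xcr1* and *Zbtb46* had no value at the filter of 5 FPKM. With the mouse as a block (the pairing by mouse), 1 member was called lower instead of 0, and all genes gave 2705 higher and 2763 lower instead of 1720 and 1664; of the members only *Wdfy4* and *Cd24a* changed their call. At T-cell scaling 505 genes were higher. With each library left out in turn, 1107–1813 genes were higher and 939–1780 lower, the lowest counts being 1107 higher without enriched replicate 4 and 939 lower without flow-through replicate 3; without enriched replicate 2 they were 1115 and 958. The members called lower numbered 0 in each of these. *Ly75* reversed to −0.28 at T-cell scaling, −0.11 without flow-through replicate 1 and −0.071 without replicate 1 in both fractions, and *Zbtb46* to 0.0066 in the last of these, an alternative chosen after seeing the data; the cause was not tested. With single libraries left out *Ly75* ran from −0.11 to 0.16. *Wdfy4* was also called with upper-quartile scaling (limma adjusted p = 0.0491), and its limma adjusted p ranged from 0.0005 to 0.149. FPKM hold no exact counts, so counting error was not given, and the lowest values, such as *Xcr1* in the flow-through, are the least precise. The 4 libraries of a fraction came from separate mice.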
